A study of Mus musculus with 67 samples.

Results

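The 10 genes described here encode core parts of the autophagy machinery, and they were taken by symbol from the 26414 genes of a table of RNA levels in mouse preimplantation embryos: *Ulk1*, *Becn1*, *Wipi2*, *Atg5*, *Map1lc3a*, *Map1lc3b*, *Gabarap*, *Gabarapl1*, *Gabarapl2* and *Sqstm1*. Each symbol matched 1 row, and all 10 genes passed the filter on low values in every comparison below. The study asked how visible light changes the RNA of embryos in culture, and the table held 67 SMART-seq2 libraries, 33 of a control group and 34 of a light group, from 5 stages. SMART-seq2 amplifies polyadenylated RNA over its full length from very small inputs.

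All embryos came from C57BL/6 mice by in vitro fertilisation, with superovulated females 6 weeks of age and males 10 weeks of age. Embryos of the light group were lit at the 2-cell stage, with 5000 lx for 6 h, and then kept in the dark, while embryos of the control group stayed in the dark (0 lx). The 2-cell libraries numbered 7 in control and 6 in light, the 4-cell libraries 6 and 8, the 8-cell libraries 4 and 8, the morula libraries 13 and 6, and the blastocyst libraries 3 and 6. The study describes manual picking of single cells from dissociated embryos, whereas the labels number an embryo for each library. Nothing stated which mice the embryos came from, so p-values measure the spread between these libraries, part of which may be technical. A library that holds less RNA of a gene cannot be told apart from a library of fewer cells or of another cell type.

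Autophagy encloses cytoplasm in a double membrane and delivers it to the lysosome. The kinase ULK1 starts the process, a phosphatidylinositol 3-kinase complex that contains BECN1 marks the growing membrane, and WIPI2 reads that mark and recruits the conjugation machinery, in which ATG5 is joined to ATG12. This machinery attaches ubiquitin-like proteins of the ATG8 family (LC3A, LC3B, GABARAP, GABARAPL1 and GABARAPL2, encoded by *Map1lc3a*, *Map1lc3b*, *Gabarap*, *Gabarapl1* and *Gabarapl2*) to the membrane, where the receptor SQSTM1 (p62) binds them and brings in ubiquitinated cargo. In the mouse, autophagy is known to be switched on after fertilisation, and embryos without maternal and zygotic ATG5 arrest before the blastocyst stage.

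Values are normalised counts, the reads of a gene divided by a size factor of its library as the authors deposited them. Total reads per library lay between 836011 and 8551674 (median 4632053), of which 54.0% to 89.3% were on 2 ribosomal RNA genes, *CT010467.1* and *Gm42418*. The ratio of *Gm42418* to *CT010467.1* did not overlap between the groups at the 2-cell stage (2.34 to 4.03 in control, 1.58 to 1.77 in light), the 8-cell stage and the morula stage, and its part in the results below was not tested. A gene is called higher or lower where limma gave a Benjamini-Hochberg adjusted p under 0.05 over all genes tested and the fold change was at least 2. Fold changes are on the scale of log2(normalised count + 1), and each standard error (SE) is that of the fit.

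RefSeq (GRCm38.p6) lists a promoter window, 250 bases before to 50 bases after the start of transcription, for 8 of the 10 genes, all but *Map1lc3a* and *Becn1*. The windows of *Wipi2*, *Map1lc3b* and *Gabarapl2* are shown because these genes were higher together in light at the 2-cell stage, and that of *Ulk1* because it was lower in light at the blastocyst stage. Capitals mark the motifs that were found. They are written 5′ to 3′ on the strand of the gene.
Wipi2 (chr5:142629334-142629633, plus strand): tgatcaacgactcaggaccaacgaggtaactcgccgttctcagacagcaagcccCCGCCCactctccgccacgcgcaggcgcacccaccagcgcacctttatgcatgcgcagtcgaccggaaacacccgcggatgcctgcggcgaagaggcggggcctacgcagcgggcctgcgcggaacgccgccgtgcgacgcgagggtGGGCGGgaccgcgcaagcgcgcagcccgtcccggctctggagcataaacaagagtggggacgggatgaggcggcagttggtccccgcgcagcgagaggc
Map1lc3b (chr8:121590188-121590487, plus strand): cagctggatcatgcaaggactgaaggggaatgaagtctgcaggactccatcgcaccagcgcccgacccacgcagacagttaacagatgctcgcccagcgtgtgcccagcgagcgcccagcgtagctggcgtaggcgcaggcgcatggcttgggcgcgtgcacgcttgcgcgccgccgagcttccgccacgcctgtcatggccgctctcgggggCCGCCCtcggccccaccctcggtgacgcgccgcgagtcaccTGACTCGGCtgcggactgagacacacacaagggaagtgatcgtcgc
Gabarapl2 (chr8:111940453-111940752, plus strand): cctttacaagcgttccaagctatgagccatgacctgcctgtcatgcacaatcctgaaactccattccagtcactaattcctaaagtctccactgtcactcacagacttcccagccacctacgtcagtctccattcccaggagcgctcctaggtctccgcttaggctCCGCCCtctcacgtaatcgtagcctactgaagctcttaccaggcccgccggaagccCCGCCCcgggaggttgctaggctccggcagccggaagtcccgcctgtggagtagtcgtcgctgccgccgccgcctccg
Ulk1 (chr5:110810032-110810331, minus strand): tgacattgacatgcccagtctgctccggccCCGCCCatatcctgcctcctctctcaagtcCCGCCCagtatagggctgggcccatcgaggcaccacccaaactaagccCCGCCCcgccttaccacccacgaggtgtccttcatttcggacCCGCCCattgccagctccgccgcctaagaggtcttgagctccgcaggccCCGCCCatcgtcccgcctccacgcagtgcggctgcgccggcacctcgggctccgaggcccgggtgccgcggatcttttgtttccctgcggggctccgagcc

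In these windows 5 motifs were searched on both strands: CACGTG (the E-box core of the element bound by TFEB), TGACNNNGC (the core of the antioxidant response element), TGATGNAA (the element bound by C/EBP and ATF factors), TGTTTAC (a FOXO site) and GGGCGG (the GC box, CCGCCC on the other strand). The GC box stood in 7 of the 8 windows, all but that of *Gabarap*, against 35.7% of 32851 windows of the same length over all genes. The windows of all genes were not matched for their share of G and C. That share was 45.7% for *Gabarap*, 46.3% for *Gabarapl1* and from 59.3% (*Atg5*) to 69.7% (*Wipi2*) for the others. The *Ulk1* window held 5 GC boxes, starting at bases 31, 61, 109, 151 and 200 of the window. The windows of *Wipi2* and *Gabarapl2* held 2 each, and that of *Map1lc3b* held 1. The E-box core stood only in the *Atg5* window (7.15% of all windows) and the antioxidant response core only in the *Map1lc3b* window (12.4% of all windows, capitals near the end of the printed run), and no GC box overlapped either. Neither TGATGNAA (3.97% of all windows) nor TGTTTAC (3.65%) was in the 8 windows. These are matches of letters and were not tested as sites.

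The ATG8 genes held both the most and the least abundant transcripts. Per kilobase of the principal transcript, *Map1lc3b*, *Gabarapl2* and *Map1lc3a* had the 3 highest mean levels of the 10 genes in control embryos from the 2-cell to the morula stage, and *Gabarapl1* had the lowest. At the control blastocyst stage *Gabarapl2*, *Map1lc3b* and *Sqstm1* led (494, 239 and 160 per kilobase) and *Becn1* was lowest (10.1). In control 4-cell embryos the level per kilobase was 1117 ± 199.8 for *Map1lc3b*, 839 ± 438 for *Gabarapl2* and 559 ± 360 for *Map1lc3a* (SD, n = 6), and the ranges of mean ± SD of neighbours in this order overlapped. In the same embryos it was 163 ± 63.4 for *Ulk1*, 153 ± 66.9 for *Wipi2*, 46.4 ± 35.4 for *Sqstm1*, 37.1 ± 27.1 for *Gabarap*, 16.9 ± 4.90 for *Atg5*, 13.1 ± 10.6 for *Becn1* and 9.60 ± 17.5 for *Gabarapl1*, and the same held for these neighbours except *Wipi2* and *Sqstm1*. With the summed length of all annotated exons in place of the principal transcript, a choice added after the data were seen, *Gabarapl2* and not *Map1lc3b* led in these embryos. The plot of levels by stage shows 3 kinds of course. Mean levels of *Atg5*, *Becn1* and *Gabarap* were highest at the 2-cell stage, with a wide spread for *Gabarap* (62.0 ± 50.7 in control). The 3 abundant ATG8 genes and *Ulk1* peaked at the 4-cell to morula stages, and *Sqstm1* was highest at the blastocyst stage.

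**Figure D1:**
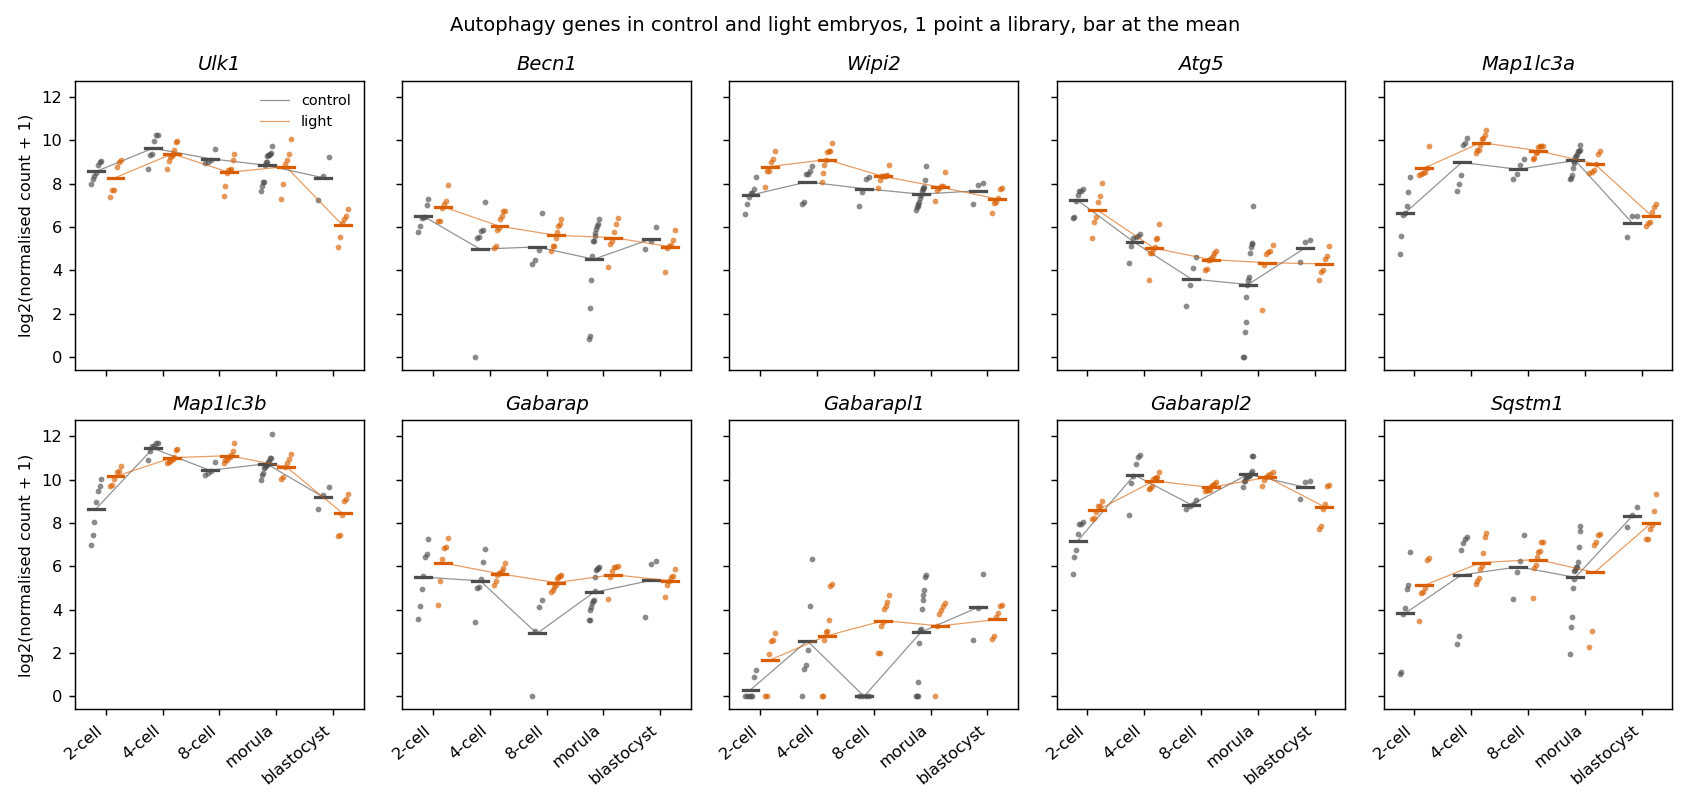
Level of each of the 10 genes (y axis, log2 of the normalised count plus 1) at 5 stages (x axis) in control (grey) and light (orange) libraries; each point is a library, each short bar the mean of a group, and thin lines join the means. *Map1lc3a* and *Gabarapl2* of the 2-cell stage do not overlap between the groups, *Gabarapl1* lies at 0 in all 4 control 8-cell libraries, and *Sqstm1* is highest at the blastocyst stage.

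At the 2-cell stage, the stage that was illuminated, 4 of the 10 autophagy genes were higher in light and none was lower. They were 3 ATG8 genes (*Map1lc3a*, *Map1lc3b* and *Gabarapl2*) and *Wipi2*, with increases of 4.23-fold, 2.80-fold, 2.65-fold and 2.49-fold. Of all 18532 genes tested, 10.5% were called and 5.53% were called higher. The median log2 change of the 10 genes was 1.31, against 0.00 over all genes tested.

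*Map1lc3a*, which encodes LC3A, had a lowest, median and highest value of 26.2, 100.2 and 317 in the 7 control libraries and of 332, 364 and 856 in the 6 light libraries. Every light library lay above every control library. The means were 129 ± 99.2 in control and 447 ± 203 in light (SD, n = 7 and 6). The log2 change was 2.08 (SE 0.41, adjusted p = 0.00117).

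*Gabarapl2* had a lowest, median and highest value of 49.7, 176 and 261 in control and of 287, 400 and 514 in light, again without overlap. Its log2 change was 1.41 (SE 0.35, adjusted p = 0.00852). Groups without overlap were found for 4.15% of all genes tested. *Map1lc3b*, whose protein LC3B is the usual marker of autophagosomes, ran from 125 to 1031 (median 496) in control and from 835 to 1563 (median 1187) in light. The groups overlapped, with 4 of 6 light libraries above the highest control library, and the log2 change was 1.48 (SE 0.36, adjusted p = 0.00727). By the exact permutation test the adjusted p of *Map1lc3b* was 0.0908, and the other 3 calls were also made by that test. Exons of *Map1lc3b* share 58 bases with *Zcchc14* on the other strand, and whether counting used strand is not given in the sources used here.

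*Wipi2*, which links the lipid mark of the phagophore to ATG16L1, ran from 97.3 to 317 (median 186) in control and from 232 to 736 (median 451) in light. In light 5 of 6 libraries exceeded the highest control library, and the log2 change was 1.32 (SE 0.31, adjusted p = 0.00555). *Sqstm1* ran from 1.04 to 99.2 in control and from 10.0 to 83.8 in light, a wide overlap (log2 change 1.29, SE 0.77, adjusted p = 0.298). *Gabarapl1* was near the limit of detection, with 2 reads in all over the 7 control libraries and 21 over the 6 light libraries. Their ratio, scaled by size factors, was 13.2 (exact 95% interval 3.23 to 116, counting error only), or 24.2 without control library 12 and 23.0 without control library 17, and the fit did not call it (log2 change 1.37, adjusted p = 0.15). At this stage *Gabarapl1* passed the filter only through the light libraries.

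The genes of initiation and of conjugation were not called. *Ulk1* had means of 391 ± 112 in control and 346 ± 171 in light, with a log2 change of -0.29 (SE 0.31), and *Atg5* had means of 158 ± 54.2 and 129 ± 77.7, with a log2 change of -0.43 (SE 0.39). *Becn1* changed by 0.44 (SE 0.37) and *Gabarap* by 0.66 (SE 0.57) on the log2 scale, none of these 4 with an adjusted p under 0.05.

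Genes of the same pathway outside the 10 were read from a list of 108 genes in 9 groups. At the 2-cell stage 18 of the 106 tested were higher in light and 2 were lower, 18.9% in all against the 10.5% of all genes. Of the 20 lysosomal genes 7 were higher and none was lower (median log2 change 1.19), and of the 9 genes of phagophore growth 4 were higher (median 1.25). *Ctsz*, a lysosomal cathepsin, had means of 26.5 ± 8.21 in control and 207 ± 81.7 in light (log2 change 2.89, adjusted p = 2.86e-05). *Cd63*, a membrane protein of late endosomes and lysosomes, rose by 2.28 on the log2 scale (adjusted p = 0.000113), *Calcoco2*, an autophagy receptor, by 2.31 (adjusted p = 0.00137) and *Vmp1*, an endoplasmic reticulum protein needed for phagophore growth, by 2.29 (adjusted p = 0.00193). The 2 that were lower were *Foxo3*, a transcription factor that regulates autophagy genes, with means of 1790 ± 318 and 693 ± 153, and *Uvrag*, a partner of BECN1, with means of 177 ± 59.8 and 84.9 ± 51.2. None of the 4 other genes of the ULK complex and none of the 5 PINK1 mitophagy genes was called by limma.

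RNA that marks the oocyte and maternal stores moved with these calls. Its summed level over 8 markers ran from 2994 to 7682 in control 2-cell libraries and from 942 to 2044 in light 2-cell libraries, with 4 of 8 markers called lower and none at 0 in all libraries of a group. The summed level of the 4 cumulus cell markers in the table ran from 0 to 5.52 in control and from 0.413 to 53.9 in light, with 1 of the 2 that could be tested called higher, *Inha* at 0 in all libraries of both groups and *Fst* at 0 in light. Their part in the result was not tested. The count of 4 called genes was the same after leaving out each of the 13 libraries in turn.

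**Figure D2:**
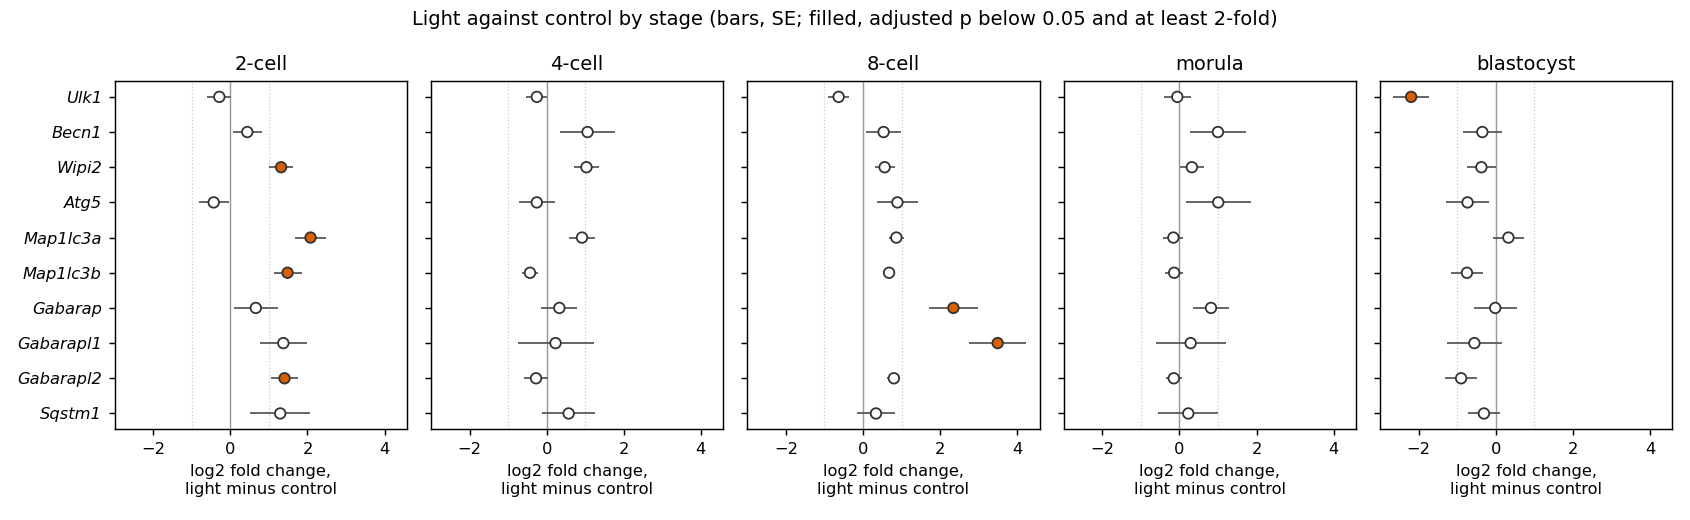
Difference between light and control (x axis, log2 fold change, light minus control) for the 10 genes (y axis) in 5 panels, 1 for each stage; bars are the SE of the limma fit, filled points mark adjusted p under 0.05 and at least 2-fold, and dotted lines mark 2-fold. The 2-cell panel has 4 filled points, the 8-cell panel 2, the blastocyst panel 1 (*Ulk1*) and the 4-cell and morula panels 0.

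At the 4-cell stage none of the 10 genes was called by limma, where 1.45% of 15010 genes tested were called. An unadjusted p under 0.05 was reached by 3 of them, and edgeR and DESeq2 on the recovered reads called 0 each. *Wipi2* came nearest, with values from 131 to 449 (median 347) in control and from 266 to 932 (median 631) in light. Of the 8 light libraries 6 lay above the highest control library, and the log2 change was 1.03 (SE 0.33, adjusted p = 0.104). Without control library 3 it was 1.18 and passed (adjusted p = 0.0412). *Map1lc3a* had a log2 change of 0.92 (SE 0.33, adjusted p = 0.154), and *Map1lc3b* one of -0.43 (SE 0.20, adjusted p = 0.253). The other log2 changes were 1.06 for *Becn1* (SE 0.70), 0.57 for *Sqstm1* (SE 0.68), 0.33 for *Gabarap* (SE 0.47), 0.23 for *Gabarapl1* (SE 0.99), -0.26 for *Ulk1* (SE 0.27), -0.26 for *Atg5* (SE 0.47) and -0.28 for *Gabarapl2* (SE 0.31). The median change of the 10 genes was 0.28, against 0.13 over all genes.

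The 3 control 4-cell libraries that were low in *Map1lc3a* (202, 254 and 337) lay well apart from the other 3 (889, 946 and 1103), while the 8 light libraries ran from 690 to 1417. The low ones were control libraries 4 to 6. Their *Gabarapl2* share of the ATG8 level per kilobase was 37.8% to 47.4%, against 10.6% to 25.4% in libraries 1 to 3. Genes above 1 numbered 11530 to 12080 and 9486 to 11050. All comparisons took these 6 libraries as 1 group, and the part of this split in them was not tested. In the pathway list 2 of 104 genes were called (1.92%): *Atg3*, the enzyme that transfers ATG8 proteins to lipid, was higher in light, with means of 84.6 ± 32.4 and 258 ± 97.6 (log2 change 1.60, adjusted p = 0.0183), and *Npc2*, a cholesterol carrier of the lysosome, was lower (log2 change -1.12, adjusted p = 0.0354). Of all calls 77.1% were higher in light with the deposited size factors and 38.9% by edgeR.

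At the 8-cell stage 2 of the 10 genes were called, both of the GABARAP branch of the ATG8 family and both higher in light. All genes gave 9.21% called and 5.91% called higher, of 13861 tested. Another 3 ATG8 genes differed by less than 2-fold with an adjusted p under 0.05. The median change of the 10 genes was 0.74 on the log2 scale, against 0.16 over all genes.

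*Gabarapl1* had no read in any of the 4 control 8-cell libraries and values from 2.97 to 24.7 (median 12.7, 3 to 58 reads) in the 8 light libraries. Against an assumed floor of 3 reads over the 4 control libraries, the light mean of 12.6 ± 7.87 was 22.2-fold higher. The fitted log2 change was 3.49 (adjusted p = 0.00398). With control at 0, *Gabarapl1* passed the filter only through the light libraries, so that it could be called only as higher. The median change of the 10 genes is the same with this gene at that floor. Exons of *Gabarapl1* share 570 bases with a processed transcript on the other strand.

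*Gabarap* had values of 0, 7.09, 16.7 and 20.9 in control and from 26.9 to 48.1 (median 38.2) in light, with no overlap. The log2 change was 2.34 (SE 0.64, adjusted p = 0.0204). The call rested on control library 2, in which the gene was at 0: without it the change was 1.38 (adjusted p = 0.0804), and edgeR and DESeq2 gave adjusted p of 0.181 and 0.0776.

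The 3 abundant ATG8 genes differed by less than 2-fold and were not called. *Gabarapl2* had values of 404, 441, 463 and 528 in control and from 706 to 953 (median 781) in light. *Map1lc3a* had values of 291, 348, 459 and 564 in control and from 570 to 854 (median 773) in light. Neither gene overlapped between the groups, as for 5.61% of all genes tested, and the log2 changes were 0.80 (SE 0.17, adjusted p = 0.00333) and 0.86 (SE 0.20, adjusted p = 0.00775). *Map1lc3b* had values of 1170, 1258, 1362 and 1795 in control and from 1764 to 3251 (median 2126) in light, so that 7 of 8 light libraries exceeded the highest control library (log2 change 0.68, SE 0.16, adjusted p = 0.00969). An adjusted p under 0.05 at any fold was reached by 9.97% of all genes. With 1 fit over all libraries the adjusted p was 0.132 for *Gabarapl2*, 0.155 for *Map1lc3a* and 0.214 for *Map1lc3b*. That of *Map1lc3b* was also 0.053 by edgeR, 0.0509 by DESeq2 and 0.0595 by the exact permutation test.

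*Ulk1* had a log2 change of -0.63 (SE 0.28, adjusted p = 0.157), and 6 of 8 light libraries lay below the lowest control library. Those of the other 4 genes were 0.89 for *Atg5* (SE 0.53), 0.56 for *Wipi2* (SE 0.26), 0.53 for *Becn1* (SE 0.46) and 0.34 for *Sqstm1* (SE 0.49), none with an adjusted p under 0.05. The summed level of the 8 markers of oocyte and maternal RNA did not overlap between the groups, with 125 to 253 in control and 40.9 to 119.8 in light 8-cell libraries and none called, and neither did the share of reads on the 2 ribosomal RNA genes, with 73.87% to 76.95% in control and 68.86% to 73.85% in light. That of 7 markers of the transient 2-cell programme ran from 83.4 to 359 in control and from 1.90 to 103 in light 8-cell libraries (1 of 4 tested called lower), and 2 trophectoderm, 2 inner cell mass and 1 primitive endoderm markers were called higher. Their part in these results was not tested. In the pathway list 15 of 103 genes were higher in light and none was lower by limma (14.6% against 9.21% of all genes, median log2 change 0.62 against 0.16). *Tfeb*, a transcription factor that switches on lysosomal and autophagy genes, had means of 8.78 ± 14.7 in control and 42.8 ± 14.6 in light, with overlap (log2 change 3.50, adjusted p = 0.00333). *Prkag1*, a subunit of AMP-activated kinase, had means of 5.59 ± 2.46 and 49.6 ± 19.2 without overlap (log2 change 2.93, adjusted p = 0.000531). *Sh3glb1*, a membrane-curving partner of UVRAG, rose by 2.71 (adjusted p = 0.0196) and *Atp6v1h*, a subunit of the proton pump of the lysosome, by 2.34 (adjusted p = 0.021). Of all calls at this stage 64.2% were higher in light with the deposited size factors and 50.7% under median ratio scaling, where 9 of the 10 genes still had a log2 change above 0.

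**Figure D3:**
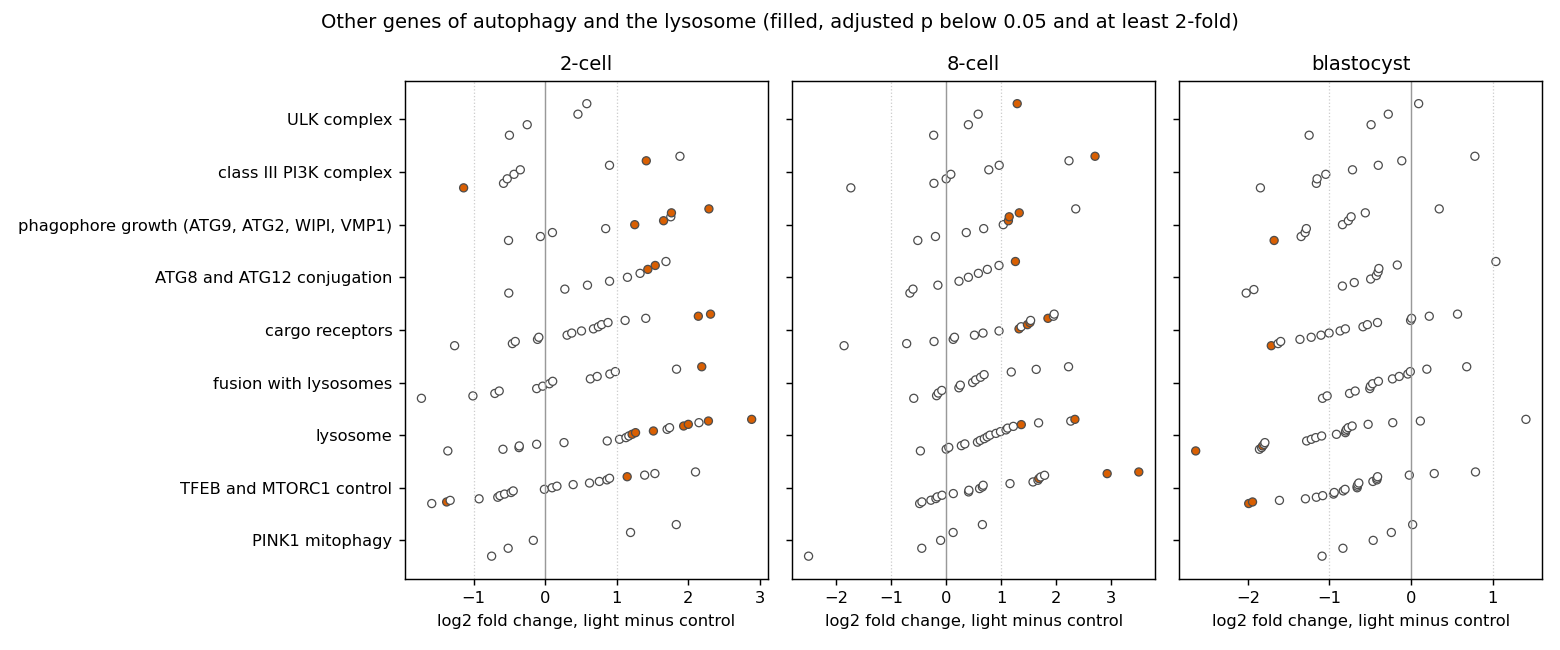
Change between light and control (x axis, log2 fold change, light minus control) of the genes tested from the list of 108 other genes of autophagy and the lysosome, by group (y axis), at the 2-cell, 8-cell and blastocyst stages; each point is a gene and filled points passed adjusted p under 0.05 and 2-fold. The 2-cell panel has 20 filled points, 18 of them higher in light, the 8-cell panel 15, all higher, and the blastocyst panel 6, all lower.

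At the morula stage none of the 10 genes was called by limma, none had an unadjusted p under 0.05, and edgeR and DESeq2 called 0 each, where 1.18% of 15217 genes tested were called. The abundant genes were close between the groups. *Map1lc3b* had means of 1822 ± 853 in 13 control and 1614 ± 497 in 6 light libraries (log2 change -0.13, SE 0.23), *Gabarapl2* had means of 1270.3 ± 427 and 1112 ± 167 (log2 change -0.15, SE 0.20), and *Map1lc3a* had means of 567 ± 186 and 499.7 ± 157 (log2 change -0.16, SE 0.26). The groups overlapped for each of these 3 genes. The log2 changes were 0.82 for *Gabarap* (SE 0.48), 0.32 for *Wipi2* (SE 0.30), 0.29 for *Gabarapl1* (SE 0.90) and -0.05 for *Ulk1* (SE 0.34).

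Rare transcripts varied widely among morulae. *Becn1* ran from 0.761 to 82.3 (median 40.2) over the 13 control libraries and from 16.5 to 85.0 in light. *Atg5* was at 0 in 2 of 13 control libraries, whose highest value was 124, and ran from 3.49 to 35.1 in light. *Sqstm1* ran from 2.83 to 231 in control and from 3.79 to 177 in light, and 4 of the 6 light libraries lay between 127 and 177. In the pathway list 0 of 106 genes were called by limma. Of all calls 30.2% were higher in light with the deposited size factors and 52.9% with libraries scaled to their reads outside the 2 ribosomal RNA genes.

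At the blastocyst stage *Ulk1*, the initiating kinase, was the only one of the 10 genes that was called, and it was lower in light by 4.57-fold. Its values were 148, 322 and 605 in the 3 control libraries and from 32.4 to 111 (median 76.6) in the 6 light libraries, with no overlap. Here 5.34% of 12743 genes tested were called, 4.98% were called lower, and the groups did not overlap for 12.5%. The log2 change was -2.19 (SE 0.47, adjusted p = 0.0116), while the median over all genes was -0.64, which leaves -1.55 for *Ulk1* relative to that median.

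The *Ulk1* call was lost without control library 1 (adjusted p = 0.0511) or control library 2 (adjusted p = 0.0520), and under scalings that bring the median of all genes near 0 (median ratio scaling: -1.53, adjusted p = 0.0734). The exact permutation test cannot go below p = 0.0119 with 3 against 6 libraries. The other 9 genes had log2 changes of -0.90 for *Gabarapl2*, -0.75 for *Map1lc3b*, -0.73 for *Atg5*, -0.55 for *Gabarapl1*, -0.37 for *Wipi2*, -0.35 for *Becn1*, -0.31 for *Sqstm1*, -0.01 for *Gabarap* and 0.33 for *Map1lc3a*, none with an adjusted p under 0.05, and 6 of the 10 lay above the median of all genes. Of all calls 6.62% were higher in light with the deposited size factors and 46.5% under median ratio scaling.

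Markers of the inner cell mass and the primitive endoderm moved with this comparison. Their summed level ran from 283 to 1604 in control and from 134 to 205 in light for the 6 inner cell mass markers, of which 5 were called lower, and from 339 to 1038 in control and from 73.6 to 178 in light for the 7 primitive endoderm markers, of which 3 of 6 tested were called lower. Of the 8 trophectoderm markers none was called by limma (476 to 6550 in control, 2782 to 6960 in light), and no marker of these 3 lists was at 0 in all libraries of a group. The number of genes above 1 did not overlap either, with 12093 to 12750 in control and 9645 to 12009 in light, while the share of reads on the 2 ribosomal RNA genes was 73.8% to 81.0% in control and 77.8% to 89.3% in light. Their part in the *Ulk1* result and in the pathway calls was not tested. In the pathway list 6 of 107 genes were lower and none was higher, a share (5.61%) and a median log2 change (-0.74) near those of all genes (5.34% and -0.64). *Lamp2*, a membrane protein of the lysosome needed for fusion with autophagosomes, had means of 214 ± 74.2 in control and 38.5 ± 29.0 in light (log2 change -2.64, adjusted p = 0.00678). *Tfe3*, a relative of TFEB, *Rptor*, a subunit of MTORC1, and *Ctsb*, a cathepsin, fell by 1.99, 1.94 and 1.82 on the log2 scale (adjusted p = 0.0457, 0.0337 and 0.0423).

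Between the 2-cell and the 4-cell stage *Map1lc3a*, *Gabarapl2* and *Ulk1* were higher and *Atg5* was lower in both groups. In control embryos 5 of the 10 were higher at the 4-cell stage (*Gabarapl2*, *Map1lc3b*, *Map1lc3a*, *Gabarapl1* and *Ulk1*) and 1 was lower (*Atg5*). In light embryos 3 were higher (*Gabarapl2*, *Map1lc3a* and *Ulk1*) and 1 was lower, again *Atg5*. All genes gave 46.1% called in control, 13.8% higher and 32.3% lower, and 36.5% called in light, 7.43% higher and 29% lower. Comparisons of neighbouring stages share the libraries of the stage between them, and the changes of the groups are given side by side.

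*Gabarapl2* went from 167 ± 86.1 to 1408 ± 734 in control (8.23-fold, adjusted p = 1.36e-05) and from 391 ± 90.0 to 997 ± 190 in light (2.56-fold, adjusted p = 6.97e-06). *Map1lc3b* went from 519 ± 349 to 2828 ± 506 in control (6.88-fold, adjusted p = 8.53e-06) and from 1162 ± 289 to 2092 ± 388 in light (1.82-fold, adjusted p = 0.000379; an adjusted p under 0.05 at any fold was reached by 38.5% of all genes). In both groups every 4-cell library of these 2 genes lay above every 2-cell library. Groups of neighbouring stages did not overlap for 20.4% of all genes tested in control and for 13% in light.

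*Map1lc3a* rose 5.06-fold in control (adjusted p = 0.00116) and 2.26-fold in light (adjusted p = 0.000187), with overlap in both. *Ulk1* rose 2.09-fold in control (adjusted p = 0.00722) and 2.14-fold in light (adjusted p = 0.00225), and these calls near the 2-fold limit were each lost without 1 of 3 libraries, where the log2 change was from 0.92 to 0.98. *Gabarapl1* had 2 reads over 7 control 2-cell libraries and 117 over 6 control 4-cell libraries, a ratio of 57.6 scaled by size factors (exact 95% interval 15.6 to 481, counting error only). *Gabarapl1* passed the filter in this comparison only through the 4-cell libraries. The call (adjusted p = 0.025) was lost without control 4-cell library 4 or 6, with adjusted p of 0.0615 and 0.0589. Of the 117 reads 83 were in library 4, without which the ratio was 18.9 (exact 95% interval 4.84 to 162), and without control 2-cell library 12 or 17 it was 105 or 100.3.

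*Atg5* moved the other way. Its lowest, median and highest values in control were 84.6, 176 and 214 in 2-cell libraries and 18.9, 44.2 and 49.8 in 4-cell libraries, with no overlap. It fell by 1.94 on the log2 scale in control (SE 0.42, adjusted p = 0.000673) and by 1.76 in light (SE 0.43, adjusted p = 0.00167). The median log2 change of all genes between these stages was -0.72 in control and -0.56 in light. *Becn1* had log2 changes of -1.52 in control (SE 0.79, adjusted p = 0.117) and -0.90 in light (SE 0.37, adjusted p = 0.0495), the second with an adjusted p under 0.05 at less than 2-fold. *Sqstm1* had log2 changes of 1.78 in control (SE 0.99, adjusted p = 0.142) and 1.05 in light (SE 0.47, adjusted p = 0.0768). *Wipi2* had log2 changes of 0.61 in control (SE 0.38) and 0.32 in light (SE 0.28), *Gabarap* of -0.17 (SE 0.65) and -0.50 (SE 0.42), and *Gabarapl1* of 1.12 in light (SE 0.83), none of them called. Exons of *Becn1* share 3104 bases with *Cntd1* and exons of *Sqstm1* share 580 bases with *Mrnip*, each on the other strand.

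The change between these stages differed between the groups for *Map1lc3b*. It was smaller in light by 1.92 on the log2 scale (interaction term -1.92, SE 0.44, adjusted p = 0.0156), where 3.07% of 20395 genes tested were called. *Gabarapl2* had an interaction term of -1.68 (SE 0.50, adjusted p = 0.0514) and *Map1lc3a* one of -1.16 (SE 0.58, adjusted p = 0.271). The other terms were -1.15 for *Gabarapl1*, -0.72 for *Sqstm1*, -0.33 for *Gabarap*, -0.29 for *Wipi2*, 0.03 for *Ulk1*, 0.17 for *Atg5* and 0.62 for *Becn1*. Over the alternatives that changed this count *Gabarapl2* joined *Map1lc3b* in 8. The pathway list gave 39 higher and 23 lower of 106 in control, 58.5% against 46.1% of all genes. In light it gave 21 higher and 17 lower of 106, 35.8% against 36.5% of all genes. Of all calls 30.0% were higher at the 4-cell stage in control and 50.8% under quantile normalization, in light 20.4% and 48.4%, and of the interaction terms 53.0% were above 0 and 67.6% under median ratio scaling. *Pink1*, the kinase that starts mitophagy, rose from 4.18 ± 5.35 to 97.2 ± 48.8 in control, *Tfeb* rose by 4.46 in control and 3.64 in light on the log2 scale, and *Uvrag* and *Fundc1*, a mitophagy receptor, fell by 5.91 and 5.89 in control. In light *Gaa*, the acid glucosidase of the lysosome, rose by 2.51, and *Rragc*, a Rag GTPase that brings MTORC1 to the lysosome, fell by 4.03.

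Between the 4-cell and the 8-cell stage 2 of the 10 genes were lower in control, *Map1lc3b* (log2 change -1.02) and *Gabarapl2* (log2 change -1.38, adjusted p = 0.042), and none was called in light. All genes gave 6.31% called in control, 5.17% lower, and 10.6% called in light. For light limma called 0, 4 genes had an unadjusted p under 0.05, and edgeR and DESeq2 called 0. *Map1lc3b* had values from 1929 to 3274 (median 2963) in control 4-cell libraries and from 1170 to 1795 in control 8-cell libraries, without overlap, as for 6.79% of all genes (log2 change -1.02, SE 0.26, adjusted p = 0.021).

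These 2 control calls did not outlast another scaling. Under median ratio scaling the log2 change was -0.22 for *Map1lc3b* (adjusted p = 0.689) and -0.58 for *Gabarapl2* (adjusted p = 0.423), and under quantile normalization that of *Map1lc3b* was 0.07, of the other sign. The median over all genes was -0.56 with the deposited size factors and 0.05 under median ratio scaling. Each call was also lost without any 1 of 7 of the 10 libraries. In light *Ulk1* had a log2 change of -0.86 (SE 0.23, adjusted p = 0.0119) and *Wipi2* one of -0.78 (SE 0.22, adjusted p = 0.0148), both under 2-fold, where 13.9% of all genes had an adjusted p under 0.05 at any fold. In light *Map1lc3b* had a log2 change of 0.09 (SE 0.14), and the median over all genes was -0.45. Changes in control and light were -0.32 and -0.37 for *Map1lc3a*, -2.43 and -0.41 for *Gabarap*, -1.68 and -0.53 for *Atg5*, 0.10 and -0.42 for *Becn1*, and 0.37 and 0.14 for *Sqstm1*, none with an adjusted p under 0.05. Those of *Ulk1* and *Wipi2* in control were -0.48 and -0.31, and those of *Gabarapl2* and *Gabarapl1* in light were -0.30 and 0.70. *Gabarapl1* went from 117 reads over 6 control 4-cell libraries to 0 over 4 control 8-cell libraries (adjusted p = 0.139). In control it passed the filter at this step only through the 4-cell libraries.

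The interaction term of *Map1lc3b* at this step was 1.11 (SE 0.25, adjusted p = 0.00687), where 3.8% of 16987 genes tested were called. It was under 2-fold by median ratio scaling (0.91, adjusted p = 0.00895) and with libraries scaled to their reads outside the 2 ribosomal RNA genes (0.94, adjusted p = 0.0035), and was not called with 1 fit over all libraries (adjusted p = 0.156). The other 9 terms, that of *Gabarapl1* (adjusted p = 0.16) and 2.01 for *Gabarap*, 1.15 for *Atg5*, 1.08 for *Gabarapl2*, -0.05 for *Map1lc3a*, -0.23 for *Sqstm1*, -0.38 for *Ulk1*, -0.47 for *Wipi2* and -0.53 for *Becn1*, were not called. Of all calls in the comparison of stages 18.1% were higher in control with the deposited size factors and 73.5% under median ratio scaling. In light these shares were 5.87% and 41.9%. Over all genes 6.31% were called in control and 10.6% in light. The pathway list gave 1 higher and 22 lower of 102 in control (22.5%) and 0 higher and 12 lower of 104 in light (11.5%). Among them *Ctsd*, a lysosomal protease, fell by 2.96 on the log2 scale in control, *Tfeb* by 4.42 in control, and *Ambra1*, a regulator of BECN1, and *Ulk2*, a kinase related to ULK1, by 1.90 and 2.17 in light.

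Between the 8-cell and the morula stage *Gabarapl2* was the only one of the 10 genes called in control, and it was higher in all 13 morula libraries (816 to 2200, median 1133) than in any of the 4 8-cell libraries (404 to 528). The log2 change was 1.41 (SE 0.24, adjusted p = 0.00017), against 14.3% of all genes called, 6.84% higher and 5.02% without overlap. In light limma called none of the 10, 4 had an unadjusted p under 0.05, and edgeR and DESeq2 called 0, against 11.8% of all genes. *Gabarapl2* had a log2 change of 0.47 (SE 0.17, adjusted p = 0.0616) in light, and *Map1lc3a* one of -0.61 (SE 0.20, adjusted p = 0.045), under 2-fold, where 12.7% of all genes had an adjusted p under 0.05 at any fold. Changes in control and light were 0.30 and -0.51 for *Map1lc3b*, -0.31 and 0.27 for *Ulk1*, -0.25 and -0.49 for *Wipi2*, -0.57 and -0.10 for *Becn1*, -0.26 and -0.14 for *Atg5*, and -0.49 and -0.59 for *Sqstm1*, and *Map1lc3a* changed by 0.41 in control, none of these with an adjusted p under 0.05.

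The interaction term of *Gabarapl2* was -0.95 (SE 0.27, adjusted p = 0.0497), under 2-fold (2.64% of all genes had an adjusted p under 0.05 at any fold), so that limma called none of the 10, with 4 at an unadjusted p under 0.05, 1 call by edgeR and 1 by DESeq2, against 2.62% of all genes. That of *Gabarapl1* had an adjusted p of 0.203, and the other terms were -1.52 for *Gabarap*, -1.02 for *Map1lc3a*, -0.81 for *Map1lc3b*, -0.24 for *Wipi2*, -0.10 for *Sqstm1*, 0.12 for *Atg5*, 0.47 for *Becn1* and 0.58 for *Ulk1*. *Gabarapl1* came back from 0 in all 4 control 8-cell libraries to a median of 7.74 over 13 control morulae, 3 of them at 0 (adjusted p = 0.0573). In control it passed the filter at this step only through the morulae. *Gabarap* had means of 11.2 ± 9.42 and 32.5 ± 20.6 (log2 change 1.89, SE 0.72, adjusted p = 0.0777), and in light the log2 changes of *Gabarap* and *Gabarapl1* were 0.37 (SE 0.34) and -0.24 (SE 0.67). The pathway list gave 18 higher and 6 lower of 105 in control, 22.9% against 14.3% of all genes. In light it gave 10 higher and 13 lower of 106, 21.7% against 11.8% of all genes. Among those higher were *Mcoln1*, a calcium channel of the lysosome, with means of 0.104 ± 0.209 and 20.0 ± 20.3 in control (adjusted p = 0.00892), and *Tpp1*, a lysosomal peptidase, which was at 0 in all 4 control 8-cell libraries and had a mean of 21.4 ± 27.4 in control morulae (adjusted p = 0.0442) and was higher in light morulae too (adjusted p = 0.0194). *Mcoln1* in control and *Tpp1* in both groups passed the filter only through the morulae. *Flcn*, a regulator of the Rag GTPases, rose by 2.97 on the log2 scale in light. *Ctsb* fell by 2.77 in control and 2.50 in light, *Atg10*, the enzyme that transfers ATG12 to ATG5, by 2.92 in control, and *Rb1cc1*, the scaffold of the ULK complex, by 2.25 in light. *Atg10*, with a mean of 0.544 ± 1.96 in control morulae, passed the filter only through the 8-cell libraries. Of all calls 47.7% were higher in control and 36.6% under median ratio scaling, and in light 39.0% and 49.1%. Of the called interaction terms 45.7% were above 0, and 63.6% under median ratio scaling.

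Between the morula and the blastocyst stage LC3 transcripts were lower and the receptor *Sqstm1* was higher in both groups. In control 3 of the 10 genes were called (11.9% of all genes, 6.75% higher and 5.11% lower), and in light 5 were called (20.7% of all genes, 5.02% higher and 15.7% lower). In light *Ulk1* and *Gabarapl2* were lower too.

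*Map1lc3a* had values from 295 to 884 (median 602) over 13 control morulae and of 45.8, 90.5 and 90.5 in 3 control blastocysts, and from 363 to 723 (median 437) and from 65.1 to 133 (median 88.2) in light. In neither group did the stages overlap. The change was 7.34-fold lower in control (log2 change -2.88, SE 0.36, adjusted p = 7.05e-06) and 5.24-fold lower in light (log2 change -2.39, SE 0.31, adjusted p = 1.16e-06). *Map1lc3b* was 2.91-fold lower in control (adjusted p = 0.00139) and 4.45-fold lower in light (adjusted p = 1.41e-05), also without overlap, as for 7.88% of all genes in control and 8.22% in light.

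*Sqstm1* rose from 72.7 ± 69.7 to 327 ± 99.9 in control (7.06-fold, adjusted p = 0.0324) and from 104 ± 79.0 to 295 ± 190 in light (4.86-fold, adjusted p = 0.0081), with overlap in both. In control the call was lost without any 1 of the 3 blastocyst libraries (adjusted p from 0.0704 to 0.147). The exact permutation test gave adjusted p of 0.114 and 0.0823, and without the filter on low values limma gave 0.0534 and 0.0824.

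*Ulk1* fell from a median of 514 (156 to 1075) in light morulae to a median of 76.6 (32.4 to 111) in light blastocysts, without overlap (6.56-fold, adjusted p = 5.07e-06). In control its log2 change was -0.57 (SE 0.43, adjusted p = 0.429). The difference between the groups was -2.14 (SE 0.63, adjusted p = 0.0704) and was not called, with 1.57% of all genes called. None of the 10 interaction terms was called by limma at this step, 1 had an unadjusted p under 0.05, and edgeR called 0 and DESeq2 1. The other terms were -1.74 for *Atg5*, -1.35 for *Becn1*, -0.85 for *Gabarapl1*, -0.83 for *Gabarap*, -0.75 for *Gabarapl2*, -0.70 for *Wipi2*, -0.61 for *Map1lc3b*, -0.54 for *Sqstm1* and 0.48 for *Map1lc3a*. Of the terms called over all genes 7.55% were above 0, and 54.4% under quantile normalization.

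*Gabarapl2* was 2.56-fold lower in light blastocysts than in light morulae (adjusted p = 0.0022), a call that was lost under median ratio scaling (log2 change -0.62, adjusted p = 0.094), under which the median of all genes went from -0.45 to 0.07. In control its log2 change was -0.60 (SE 0.28, adjusted p = 0.181). Changes in control and light were 0.15 and -0.54 for *Wipi2*, 0.92 and -0.42 for *Becn1*, 1.68 and -0.06 for *Atg5*, 0.55 and -0.28 for *Gabarap*, and 1.14 and 0.30 for *Gabarapl1*, none of them called. The pathway list gave 6 higher and 5 lower of 107 in control, 10.3% against 11.9% of all genes. In light it gave 4 higher and 29 lower of 107, 30.8% against 20.7% of all genes. *Optn*, an autophagy receptor related in function to SQSTM1, rose by 4.20 on the log2 scale in control and 2.18 in light. *Atg4c*, a protease that processes ATG8 proteins, rose by 4.10 in control and *Tfeb* by 3.46 in light. In control *Atg4c* passed the filter only through the blastocysts, so that it could be called only as higher. *Ctsz* and *Sec62*, a receptor for autophagy of the endoplasmic reticulum, fell by 3.27 and 2.31 in control, and *Vmp1* and *Ddit4*, an inhibitor of MTORC1, by 2.98 and 3.13 in light. Of all calls 56.9% were higher in control and 43.0% under quantile normalization, and in light 24.2% and 62.0% under median ratio scaling.

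The make-up of the ATG8 family differed between stages, as the plot of family shares shows. As a share of the summed level per kilobase of the 5 genes, *Map1lc3a* made up 24.3% ± 7.08 at the control 2-cell stage, 25.7% ± 6.56 at the control morula stage and 7.83% ± 1.48 at the control blastocyst stage (SD, n = 7, 13 and 3). *Gabarapl2* made up 23.9% ± 9.59, 37.6% ± 4.40 and 57.5% ± 8.12 at the same stages. At the control 4-cell and 8-cell stages (n = 6 and 4) *Gabarapl2* made up 31.4% ± 14.7 and 23.2% ± 5.11. *Map1lc3a* made up 23.3% ± 17.0 and 30.5% ± 4.45 there. Neither mean share moved in 1 direction over the 5 stages. The ranges of the morula and blastocyst libraries did not overlap for either gene in control (*Map1lc3a* 15.1% to 35.8% and 6.30% to 9.25%, *Gabarapl2* 31.3% to 47.5% and 51.0% to 66.6%).

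These shares depend on the length of transcript that is taken. The summed length of all annotated exons was a choice added after the data were seen. With it *Map1lc3a* made up 37.2% ± 9.52, 37.2% ± 7.83 and 11.6% ± 1.55 at the control 2-cell, morula and blastocyst stages. *Gabarapl2* made up 28.2% ± 10.8, 42.3% ± 5.26 and 65.4% ± 5.22. The ranges of morula and blastocyst libraries did not overlap for either gene with either length.

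In light blastocysts *Map1lc3a* made up 16.1% ± 4.00 (12.5% to 22.6%, n = 6), above each of the 3 control blastocysts, and *Gabarapl2* 49.7% ± 5.95. With all annotated exons these were 23.0% ± 5.01, again above each of the 3, and 54.6% ± 7.04. These shares were given no test. In control 4-cell embryos *Map1lc3a* made up from 6.63% to 46.2%, and in light 4-cell embryos from 33.9% to 42.4%. *Gabarap* and *Gabarapl1* were minor, with means of at most 8.97% for *Gabarap* (control 2-cell stage) and at most 1.74% for *Gabarapl1* (control blastocyst stage).

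**Figure D4:**
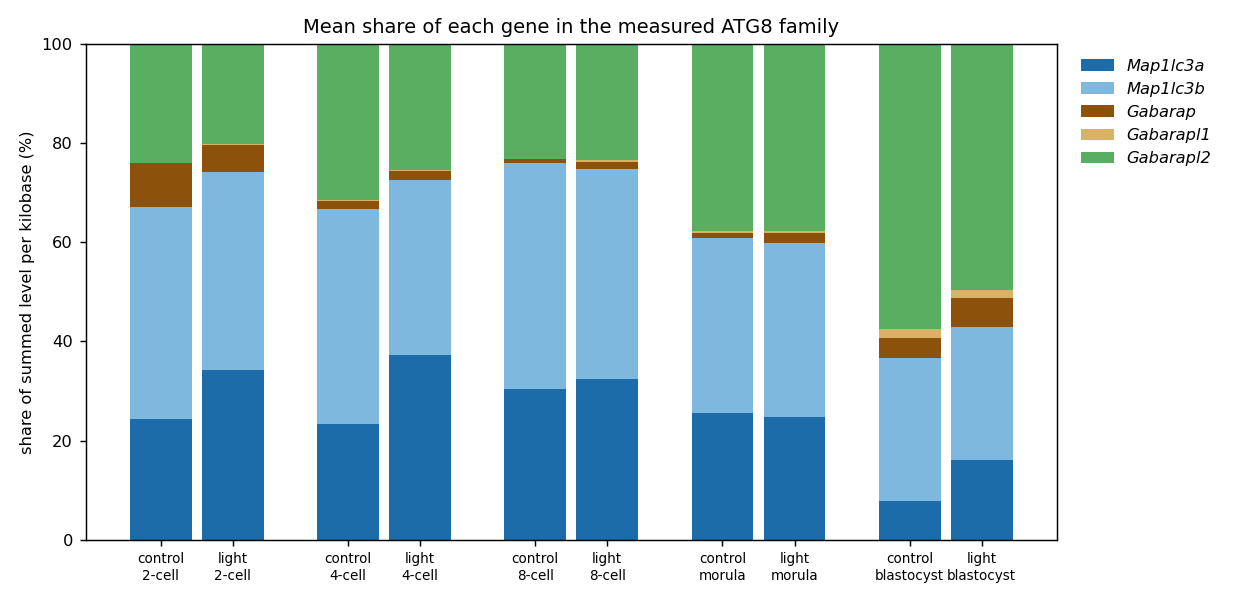
Mean share of each of 5 ATG8 family genes in their summed level per kilobase (y axis, percent, stacked to 100) for control and light at each stage (x axis). *Gabarapl2* takes 57.5% in control blastocysts and 49.7% in light blastocysts, and *Map1lc3a* takes 7.83% and 16.1%.

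The genes whose course was most like that of each member were found by Pearson's r over the 10 group means of log2 values among 8263 named genes with a mean normalised count of at least 10. These r are a description over 10 points that share libraries and size factors. For *Map1lc3b* the nearest were *Snora73b* (r = 0.993) and *Timm17a*, a mitochondrial import protein (r = 0.987). For *Gabarapl2* they were the ribosomal protein genes *Rpl5* (r = 0.983) and *Rpl7* (r = 0.978), and for *Map1lc3a* the prefoldin subunit *Pfdn6* (r = 0.966) and the translation initiation factor *Eif3h* (r = 0.959). For *Wipi2* they were *Wdr92* (r = 0.981) and *Plekhf2* (r = 0.968), for *Ulk1* the nearest was *Gnpnat1* (r = 0.977), for *Atg5* *Ell* (r = 0.981) and *Anxa7* (r = 0.976), and for *Becn1* *Snapc1* (r = 0.980) and *Ssx2ip* (r = 0.976). For *Gabarap* they were *Arf4* (r = 0.973) and *Dnaja3* (r = 0.968), for *Gabarapl1* *Mrps27* (r = 0.978) and *Acp1* (r = 0.965), and for *Sqstm1* *Sdhd* (r = 0.935) and *Pepd* (r = 0.934). None of these nearest genes was among the 10.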

How the data were processed

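SMART-seq2 libraries of mouse preimplantation embryos, 67 in all, were read from the single deposited table. Its values are a signal per gene that the authors deposited after normalisation. The submitters' processing notes name HISAT2, HTSeq 0.9.1 and mm9. The study's methods speak of RPKM, yet in each library 99.95% or more of the values came out as whole reads (tolerance 0.01 reads) with 1 factor per library, so no division by gene length was found. Of the 26414 symbols 99.68% were in GENCODE M21, which was used for lengths and exon overlap only.

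Groups were taken from the labels. Values were tested as log2(signal + 1) with limma 3.58.1 (trend) in R 4.3.3, over genes above 1 in at least 3 of the libraries fitted, and called at an adjusted p under 0.05 and at least 2-fold, the thresholds of the study. Light was compared with control at each stage, neighbouring stages within each group, and the difference of these changes by an interaction term. Alternatives were another pseudocount (0.1), no filter, a mean above 5, median ratio, quantile and library-total scaling, 1 fit over all libraries, library weights, edgeR 4.0.16 and DESeq2 1.42.0 on the recovered reads, the exact permutation test (two-sided), a block on the replicate number and leaving out each library. Scripts were tested on simulated data. All 10 genes are named in every comparison, and of the pathway list, among called genes with a mean of at least 10 in a group, those with the largest changes in each direction (up to 4 in light against control, 2 between stages). Members and lists were chosen with earlier results of these data known. Results of 1 gene of the pathway list and of 1 of the genes nearest in course to a member are not reported here. Count intervals cover counting error only. Versions of Python and scipy were 3.11.15 and 1.17.1. How reads on near-identical gene copies were counted is not given in the sources used here.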

Additional observations from a re-analysis of the deposited data

Results flagged for a closer look

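Dixon's criterion was applied to log2(normalised count + 1) in 80 pairs of a gene and a group of 4 to 10 libraries. In 6 of them 1 library stood apart from the rest, and chance gives about 1 in 20. Values below are printed before the log, where the gaps are not those tested. How far a value of 0 stands apart depends on the added count of 1. *Becn1* was at 0 in control 4-cell library 2, where the other 5 ran from 44.4 to 141. *Atg5* was at 3.49 in light morula library 12, with the others from 18.1 to 35.1. *Map1lc3a* was at 856 in light 2-cell library 14, with the others from 332 to 420. *Gabarap* was at 21.7 in light morula library 3, with the others from 43.9 to 63.0. *Gabarapl1* was at 0 in light morula library 1, with the others from 8.48 to 18.7. *Sqstm1* was at 21.9 in light 8-cell library 5, with the others from 59.8 to 137.

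The change of *Map1lc3b* between stages differed between light and control at 2 steps by limma's interaction term. From the 2-cell to the 4-cell stage the term was -1.92 (adjusted p = 0.0156), and from the 4-cell to the 8-cell stage it was 1.11 (adjusted p = 0.00687). Both terms use the same 4-cell libraries, and each is the light against control change of the later stage less that of the earlier. These changes, given above, were 1.48, -0.43 and 0.68 on the log2 scale at the 2-cell, 4-cell and 8-cell stages.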

How the results depend on the processing

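Of 842 values of single genes under other settings than leaving out a library, 720 kept direction and side of the threshold, 63 changed sign and were called in neither setting, 54 lost the call, 4 gained it and 1 reversed, and of 1002 values without 1 library 952 kept both, 20 changed sign and were called in neither, 28 lost the call and 2 gained it. The value that reversed was *Map1lc3b* between the control 4-cell and 8-cell stages, 0.0677 under quantile normalization (adjusted p = 0.903). Counts below are of the 10 genes called.

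Light against control gave 1 at the 4-cell stage under quantile normalization, 1 fit over all libraries and library weights (0 in the report), 1 at the 8-cell stage by edgeR and by DESeq2 (2 in the report), and at the blastocyst stage 0 under median ratio, quantile and library-total scaling, edgeR and the exact permutation test, and 2 by DESeq2 (1 in the report). In control, 8-cell against 4-cell gave 1 with a pseudocount of 0.1, with no filter and by DESeq2, and 0 under median ratio, quantile and library-total scaling, edgeR and the exact permutation test (2 in the report). Morula against 8-cell gave 2 with a pseudocount of 0.1, a mean above 5, edgeR, DESeq2 and library weights, and 3 with 1 fit over all libraries (1 in the report). In light, 4-cell against 2-cell gave 7 by DESeq2, 6 under median ratio and library-total scaling and by edgeR, 5 under quantile normalization and 3 with library weights (4 in the report), and in control 7 under quantile normalization, by edgeR and by DESeq2 (6 in the report). The interaction terms gave, from 2-cell to 4-cell, 2 with a mean above 5, median ratio, quantile and library-total scaling, 1 fit over all libraries, edgeR, DESeq2 and library weights. From 4-cell to 8-cell they gave 0 under the 3 scalings and 1 fit over all libraries, 3 by edgeR, and 2 by DESeq2 and library weights. From 8-cell to morula they gave 1 by edgeR and DESeq2, and from morula to blastocyst 1 with 1 fit over all libraries, DESeq2 and library weights. The cause was not tested.

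Without 1 library, light against control gave 4 to 4, 0 to 1, 2 to 2, 0 to 0 and 0 to 1 calls at the 5 stages in order. The 4 steps between stages gave 5 to 6, 0 to 2, 1 to 2 and 2 to 3 in control and 3 to 5, 0 to 0, 0 to 0 and 5 to 5 in light, and their interaction terms 1 to 2, 1 to 2, 0 to 1 and 0 to 1.

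Replicate numbers did not pair light with control libraries of a stage. Over 10 same-numbered pairs at the 2-cell, 4-cell and morula stages the correlation of deviations ran from -0.0683 to 0.0693, none over 0.1. Same-numbered libraries of neighbouring stages were not checked in this way. With the replicate block 0 genes were called at the 2-cell stage (4 without it), in control between 4-cell and 8-cell, 8-cell and morula and morula and blastocyst, in light between 2-cell and 4-cell, and for the interaction terms at the first 2 steps. The block draws a difference between groups only from libraries that share a number. Few did, so the loss of calls with it cannot tell whether a call holds. The exact permutation test called 0 of all genes at the 4-cell stage, at the blastocyst stage and in control between 4-cell and 8-cell, where its smallest p is 0.000333, 0.0119 and 0.00476. Depth limits *Gabarapl1*, with at most 92 reads in a library.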
